A study of Mus musculus with 7 samples.

Results

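The genes described here encode the proteins of the cytosolic ribosome and the factors that start and carry forward translation. They were chosen by symbol from the RefSeq gene table of GRCm38.p6: protein-coding genes named Rpl or Rps with a number, Rplp0, Rplp1, Rplp2 and Rpsa, and genes named Eif with a number or Eef, while the Rps6k kinases were left out. The rule gave 163 of 21887 protein-coding genes, 91 of them ribosomal protein genes and 72 translation factor genes. The assay was ATAC-seq, which maps open chromatin by where a transposase can insert sequencing adapters. The cells were CD15-positive neural progenitors sorted by FACS from the dorsal telencephalon, the embryonic cortex, of CD-1 mice at E14.5 (embryonic day). There were 3 wild-type libraries, which the design text calls control, and 4 libraries from L3mbtl3 -/- (knockout) embryos, named below by genotype and replicate number. The labels also mention L3mbtl3 heterozygous cells, but no library carries that genotype, and they give neither the kind of allele nor the number or sex of the embryos behind a library.

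Every cell builds ribosomes from a small and a large subunit, each made of ribosomal RNA and a fixed set of proteins, nearly all of them encoded by single genes with many processed pseudogenes. Initiation factors load the small subunit onto an mRNA and find the start codon, and elongation factors then bring in aminoacyl-tRNAs and move the ribosome along. Mammalian ribosomal protein genes are known for short, CpG-rich promoters and for transcripts that start in a run of pyrimidines, through which the mTOR pathway controls their translation.

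A gene was called in a library when that library's list of broad peaks held a peak within 1 kb of either end of the gene. Peaks were called separately in each library. Wild-type libraries 1 to 3 had 7448, 11394 and 6458 peaks, and knockout libraries 1 to 4 had 9827, 7111, 3366 and 17362, so knockout library 4 had the longest list and knockout library 3 the shortest. Read depth is unknown, and a gene without a peak is one that was not called, not one shown to be closed. Nothing in the labels says that libraries came from separate embryos, so the spread between libraries may be partly technical. L3mbtl3 itself had no end peak in any library, which does not test its deletion. Among 12 radial glial and dorsal progenitor markers, 11 had a peak in the gene span or 50 kb on either side in at least 1 library and 4 (Vim, Fabp7, Sox9 and Gli3) in all 7. At the gene ends 6 of the 12 were called, with Pax6 and Nes in none. End peaks were called at 2 of 3 intermediate progenitor markers (Eomes in none), at 3 of 6 neuronal markers (Fezf2 in 6 libraries) and at 1 of 6 ventral markers, the interneuron gene Gad2, in 2 libraries of each genotype. No end peak was called at the 3 oligodendroglial, 4 endothelial or 5 microglial and blood markers, while the meningeal gene Dcn was called in 2 knockout libraries. The wider measure, span and 50 kb on either side, found a peak in at least 1 library at 6 of 6 neuronal, 4 of 6 ventral, 4 of 4 endothelial and 5 of 5 microglial and blood markers, at 1 of 4 meningeal and 2 of 3 intermediate progenitor markers, and at 0 of 3 oligodendroglial markers. In all 7 libraries it found one at 2 neuronal markers, 1 ventral marker (Gad2) and 1 meningeal marker (Dcn).

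Of the 163 genes, 75 (46.0%) were called in at least 1 library, against 23.6% of all protein-coding genes. Of the 75, 40 were called in 2 or more libraries and 35 in 1 only, 22 of these 35 in knockout library 4, and 88 genes were called in none. In 4 or more libraries 18 genes (11.04%) were called, against 6.52% of all genes. All 7 libraries called 3 genes (1.84%), namely Rpl30, Eif3f and Eif2ak3, against 1.13% of all genes. Without knockout library 4 the number called in at least 4 of the remaining libraries was 10. That cut is stricter than 4 of 7, and the matching share of all genes is not given here.

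**Figure D1:**
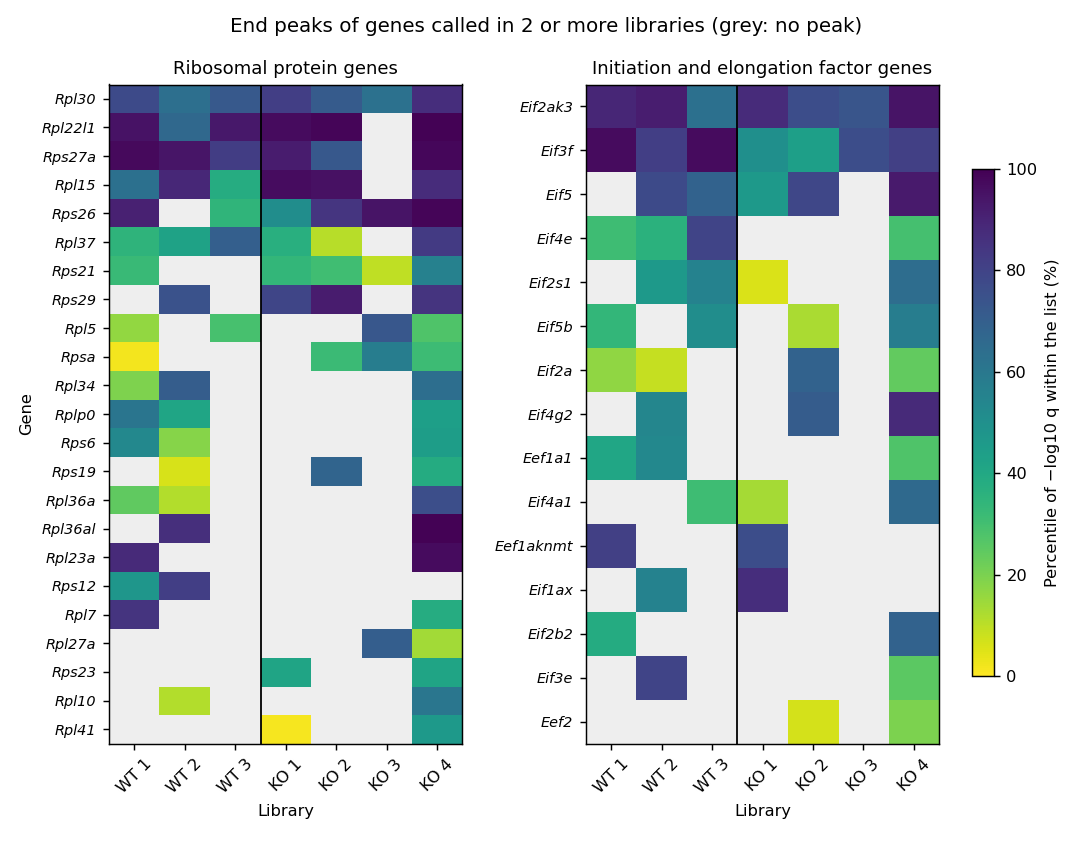
The rows are genes called in 2 or more of the 7 libraries, ribosomal protein genes on the left and factor genes on the right, and each column is a library, with the vertical line between wild-type and knockout. Colour gives the percentile of the peak's −log10 q within its own list and grey means no end peak; Rpl30, Eif2ak3 and Eif3f are the rows without grey, and knockout library 3 has the most grey cells.

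Relative to all genes, the share of these genes that was called was higher in every library. The 163 genes were called at 15.95%, 18.4% and 10.4% in wild-type libraries 1 to 3, where all protein-coding genes stood at 7.41%, 11.1% and 6.63%. In knockout libraries 1 to 4 they were called at 11.7%, 12.3%, 5.52% and 36.2%, and all genes at 8.76%, 6.12%, 3.55% and 18.01%. The ratio of these shares ran from 1.33 to 2.15 and averaged 1.75 ± 0.303 (SD, n = 7), above 1 in 7 of 7 libraries. Mitochondrial ribosomal protein genes, which serve the organelle's own ribosome, had a mean ratio of 1.28 ± 0.373 (SD, n = 7), above 1 in 5 of 7.

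Ribosomal protein genes and factor genes did not separate from each other. Ribosomal protein genes were called at 19.8%, 18.7% and 8.79% in the wild-type libraries and at 13.2%, 12.1%, 7.69% and 37.4% in the knockout libraries. Factor genes were called at 11.1%, 18.1% and 12.5% and at 9.72%, 12.5%, 2.78% and 34.7%. The ribosomal protein share was higher in 5 of 7 libraries and lower in wild-type library 3 and knockout library 2. The mean difference of 2.31 ± 3.98 percentage points (SD, n = 7) was smaller than its spread between libraries. In each library the ribosomal protein share exceeded that of all genes, by a ratio of 1.91 ± 0.453 (SD, n = 7), and the factor share did so in 6 of 7, by 1.55 ± 0.464 (SD, n = 7), with knockout library 3 below 1 at 0.781. In all, 41 of 91 ribosomal protein genes and 34 of 72 factor genes were called at least once.

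**Figure D2:**
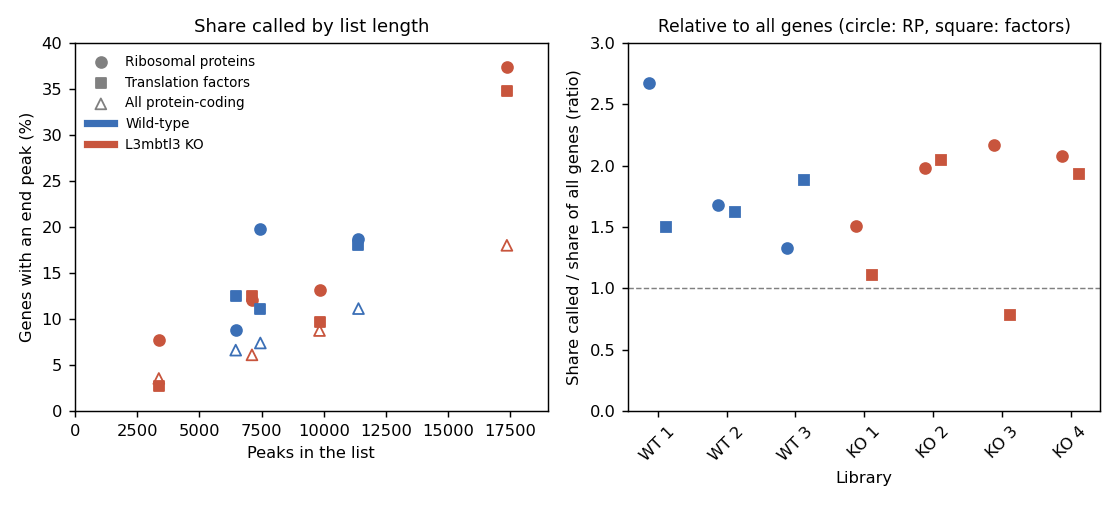
Left, the percent of genes with an end peak (vertical axis) against the number of peaks in the list (horizontal axis), 1 circle, square and open triangle per library for ribosomal protein, factor and all protein-coding genes; shares are highest in the longest list, knockout library 4. Right, the same shares divided by that of all genes in each library, with the dashed line at 1; the square of knockout library 3, at 0.781, is the only point below it.

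The 3 genes called in every library had peaks of middle to high rank within their lists. Rpl30 encodes a protein of the large subunit. Its peaks lay at percentiles 77.4, 63.6 and 72.1 in wild-type and 81.6, 71.4, 62.7 and 87.0 in knockout libraries, where the percentile is the place of a peak's −log10 q among all peaks of the same list. The genotypes overlapped. These peaks merged into chr15:34443198-34443369, which covers the upper end of the gene (34440505 to 34443276). Eif3f encodes a subunit of eIF3, the large complex that holds the small subunit and mRNA together, and had a peak at chr7:108934176-108934452. Its percentiles were 97.1, 81.4 and 96.9 in wild-type and 50.2, 43.4, 76.5 and 81.0 in knockout libraries, so that each wild-type value was above each knockout value, by a small margin between wild-type library 2 and knockout library 4. The authors' fold enrichment at Eif3f, the ratio of signal to background that the peak caller gives, was 7.20, 5.67 and 6.47 and then 4.66, 4.59, 4.67 and 5.42. Fold and −log10 q depend on the library in which the peak was called, and this contrast carries no test. How often ranks separate in this way over all genes called in every library was not counted. At Rpl22l1, described below, the order was the reverse, with each wild-type percentile below each knockout percentile and no call in knockout library 3. Eif2ak3 encodes PERK, the kinase of the endoplasmic reticulum that phosphorylates eIF2 when unfolded proteins build up. Its percentiles were 89.3, 91.9 and 63.1 in wild-type and 87.7, 76.4, 73.6 and 94.6 in knockout libraries, at chr6:70844124-70844579, and the genotypes overlapped.

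The starts of 5 genes are printed here to show what DNA lies under the peaks that recurred most. They are the genes called in 6 or 7 libraries for which RefSeq gives a promoter window and whose merged peak overlaps the stretch shown. Each runs from 130 bases before to 20 bases from the annotated start, 5′ to 3′ on the gene's strand, in GRCm38.p6. Capitals mark matches to 7 motifs searched on both strands, which are the ETS motif (CCGGAAG), the YY1 motif (AANATGGC), the GC box (GGGCGG), the CCAAT box (those letters), the TATA box (searched as TATAAA), the NRF1 motif and the E-box of proneural factors (CAGCTG). They also mark, on the gene's strand only, a run of pyrimidines that begins with C at the annotated start and goes on for at least 4 more C or T. Eif2ak3 lies at chr6:70844385-70844534 (plus strand) and holds 2 CCAAT boxes. Eif3f lies at chr7:108934285-108934434 (plus strand) and holds 2 CCAAT boxes, a TATA box between them and a pyrimidine run at its start. Rpl22l1, a paralog of Rpl22, lies at chr3:28805378-28805527 (plus strand), with 2 overlapping TATA box matches on opposite strands. Rpl15 lies at chr14:18270967-18271116 (minus strand), with a GC box, an ETS match and a pyrimidine run at its start. Rpl37 lies at chr15:5116483-5116632 (plus strand), with a CCAAT box, an ETS match and a GC box.
Eif2ak3: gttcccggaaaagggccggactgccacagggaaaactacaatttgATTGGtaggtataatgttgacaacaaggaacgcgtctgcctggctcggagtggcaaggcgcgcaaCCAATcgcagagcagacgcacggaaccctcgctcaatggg
Eif3f: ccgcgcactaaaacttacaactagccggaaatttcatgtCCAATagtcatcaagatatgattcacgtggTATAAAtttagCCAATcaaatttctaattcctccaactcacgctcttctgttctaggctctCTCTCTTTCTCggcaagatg
Rpl22l1: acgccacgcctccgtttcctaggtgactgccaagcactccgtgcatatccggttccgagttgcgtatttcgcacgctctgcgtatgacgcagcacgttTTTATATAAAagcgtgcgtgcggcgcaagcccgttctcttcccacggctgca
Rpl15: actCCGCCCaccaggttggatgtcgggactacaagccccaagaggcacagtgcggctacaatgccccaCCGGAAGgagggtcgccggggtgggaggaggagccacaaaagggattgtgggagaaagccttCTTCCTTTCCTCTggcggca
Rpl37: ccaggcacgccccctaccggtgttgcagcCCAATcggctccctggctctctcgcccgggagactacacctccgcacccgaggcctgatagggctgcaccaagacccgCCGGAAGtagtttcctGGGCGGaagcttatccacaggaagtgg

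Large subunit genes numbered 46, of which 20 (43.5%) were called in at least 1 library and 4 (8.70%) in 4 or more. The shares over all genes were 23.6% and 6.52%. Rpl15, which encodes a large subunit protein, was called in all libraries but knockout library 3. Its percentiles were 63.2, 88.9 and 37.9 in wild-type and 96.8, 95.7 and 87.4 in knockout libraries 1, 2 and 4. The merged peak at chr14:18270979-18271221 is shared with the neighbouring gene Nkiras1, and its centre was nearer to an end of Nkiras1 in each of these libraries. Rpl37 was called in the same 6 libraries at lower ranks, with percentiles of 34.8, 42.3 and 69.8 in wild-type and 36.8, 10.8 and 83.1 in knockout libraries 1, 2 and 4. Its peak at chr15:5116245-5116679 is shared with Card6, and its centre was nearer to an end of Card6 in 5 of the 6, although it touches Rpl37 itself in 5 as well. Rpl5, which with Rpl11 carries the 5S ribosomal RNA into the ribosome, was called in wild-type libraries 1 and 3 and knockout libraries 3 and 4. Rpl11 was called in none. Rpl27a was called in knockout libraries 3 and 4 and in no wild-type library.

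Small subunit genes numbered 31, of which 18 (58.1%) were called at least once and 6 (19.4%) in 4 or more libraries. These shares were higher than in the large subunit and than those of all genes (23.6% and 6.52%). Of the 18, 5 were called in knockout library 4 only. Small and large subunit shares were close in wild-type library 1 (22.6% and 21.7%) and wild-type library 3 (9.68% and 8.70%). In wild-type library 2 they were 22.6% and 17.4%. Knockout libraries 1 to 4 had 19.4% and 10.9%, 19.4% and 8.70%, 12.9% and 6.52%, and 45.2% and 37.0%. The small subunit share was higher in every library, and the difference was not tested. Rps27a, which encodes a fusion of ubiquitin with a small subunit protein, was called in all libraries but knockout library 3, at percentiles of 97.4, 94.4 and 81.9 in wild-type and 92.3, 72.5 and 98.1 in knockout libraries. Its peak (chr11:29548126-29548267) lies within 1 kb of Clhc1 as well. Rps26 was called in all libraries but wild-type library 2, at percentiles of 91.0 and 34.4 in wild-type and 51.0, 84.7, 94.9 and 98.8 in knockout libraries. Its peak (chr10:128626748-128626921) ended 242 to 268 bp before the annotated start and did not reach it in any library. Rps21 had calls from 1 of 3 wild-type libraries and 4 of 4 knockout libraries, at percentiles of 32.4 and then 33.8, 30.7, 9.4 and 56.2 (chr2:180257075-180257416). Rps12 was called in wild-type libraries 1 and 2, at percentiles of 47.4 and 81.4, and in no knockout library. Rpsa, a small subunit protein also known as the laminin receptor precursor, and Rps29 were each called in 1 wild-type library and 3 knockout libraries.

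Among the 14 paralogs and binding proteins, 3 (21.4%) were called in at least 1 library, against 23.6% of all genes. Rpl22l1 had the highest mean percentile (91.7) of the genes called in 6 libraries, with values of 95.1, 66.2 and 93.4 in wild-type and 97.2, 98.8 and 99.4 in knockout libraries 1, 2 and 4 (chr3:28805386-28805541). Rpl36al was called in wild-type library 2 and knockout library 4, with a peak shared with Mgat2, and Rpl7l1 in knockout library 4 only. Tissue-restricted paralogs such as Rpl3l, of striated muscle, and Rpl10l, of the testis, were called in none.

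Initiation factors that handle the initiator tRNA were called unevenly. At least 1 library called 20% of the eIF1 family and 66.7% of the Eif2 genes without kinases and eIF2B. The shares were 75% for the eIF2 kinases, 40% for eIF2B and 60% for Eif5 and Eif6 symbols. Each of these groups holds only 4 to 6 genes, and the share of all genes was 23.6%. Of 5 eIF1 family genes only Eif1ax was called, in wild-type library 2 and knockout library 1, and Eif1, which guards start codon choice, in none. Of 6 genes with an Eif2 symbol, kinases and eIF2B left aside, 4 were called. Not all of the 6 encode eIF2 subunits, and Eif2a encodes a separate factor. Eif2s1, the subunit whose phosphorylation slows initiation, had a peak in 2 of 3 wild-type libraries and in 2 of 4 knockout libraries, and so had Eif2a. By their centres, the Eif2s1 peak was nearer to Atp6v1d in each of the 4 libraries and the Eif2a peak nearer to Serp1 in 3 of 4. The Y-linked Eif2s3y and its X-linked partner Eif2s3x were called in none. Of the eIF2 kinases, Eif2ak1 and Eif2ak4 were each called in 1 library, far from the 7 of Eif2ak3. Of 5 genes for eIF2B, the exchange factor that recharges eIF2, Eif2b2 was called in 2 libraries and Eif2b4 in 1. Eif5, the activator of GTP hydrolysis by eIF2, was called in wild-type libraries 2 and 3 and knockout libraries 1, 2 and 4, at percentiles of 77.5 and 68.7 and then 46.1, 78.8 and 92.7 (chr12:111538038-111538167). Eif5b, which joins the subunits, was called in 4 libraries, each time by a peak nearer to Txndc9, and the hypusinated factor gene Eif5a in knockout library 2 only.

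Of 14 eIF3 genes 5 (35.7%) were called, against 23.6% of all genes, and apart from Eif3f none in more than 2 libraries. Eif3e was called in 2 and Eif3j1 and Eif3k in knockout library 4 only. Of 14 genes with an Eif4 symbol, Eif4ebp left aside, 5 (35.7%) were called, against 23.6% of all genes. Products of this family, though not of every gene in it, bind the mRNA cap and unwind the leader. Eif4e, the cap-binding protein, had a peak in 3 of 3 wild-type libraries and in 1 of 4 knockout libraries. Its percentiles were 30.9, 36.3 and 79.4 in wild-type and 29.5 in knockout library 4. Eif4g2 and the helicase gene Eif4a1 each had a peak in 1 of 3 wild-type libraries and in 2 of 4 knockout libraries. Of the 3 genes for repressors that bind the Eif4e protein (Eif4ebp), Eif4ebp2 was called in knockout library 4 only.

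No gene with an Eef symbol was called in more than 3 libraries, while 6.52% of all genes were called in 4 or more. Of 6 genes with an Eef1 symbol, methyltransferases left aside, 3 (50%) were called in at least 1 library. Of the 3 genes Eef2, Eef2k and Eefsec, 2 (66.7%) were called, and of all genes 23.6%. Eef1a1, which brings aminoacyl-tRNA to the ribosome and is among the most abundant proteins of most cells, was called in wild-type libraries 1 and 2 and knockout library 4, at percentiles of 40.7, 53.4 and 27.5. Its paralog Eef1a2, of neurons and muscle, was called in none. The exchange factor subunits Eef1d and Eef1g were each called in knockout library 4 only. Eef2, the translocase, was called in knockout libraries 2 and 4 by a peak shared with Dapk3, 311 and 198 bp beyond the end of the gene that is far from its start, and nearer to Dapk3 in both. Its kinase gene Eef2k was called in wild-type library 2 only. Of 7 genes for methyltransferases that modify elongation factors, 5 (71.4%) were called, against 23.6% of all genes. Eef1aknmt was called in wild-type library 1 and knockout library 1 and the others of the 5 in 1 library each. Eef1akmt4 and the readthrough gene Eef1akmt4-ece2 share their only peak.

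**Figure D3:**
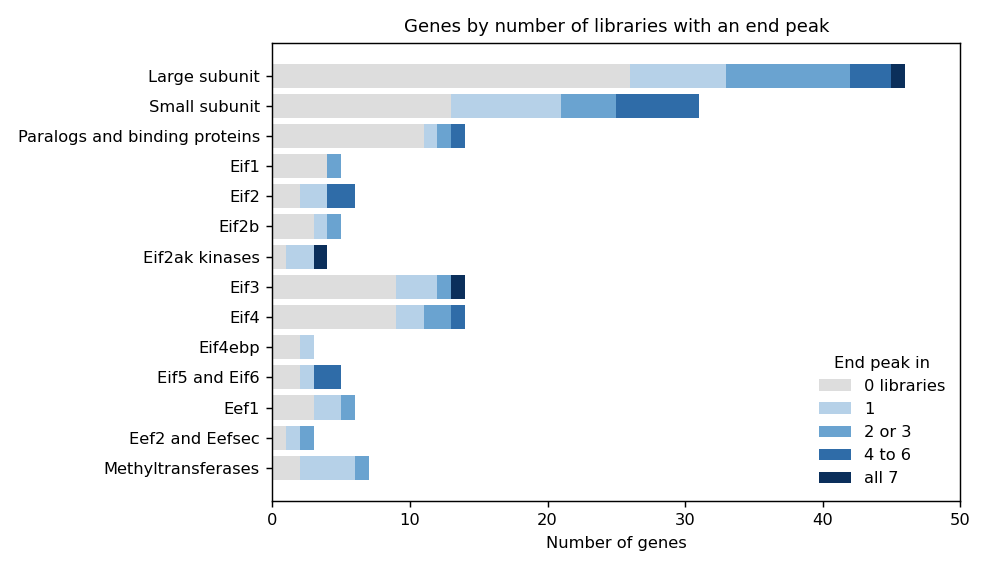
Bars give the number of genes in each functional group, shaded by the number of libraries (of 7) with an end peak. Rpl30, Eif3f and Eif2ak3 make up the darkest segments, in the large subunit, Eif3 and Eif2ak bars, and genes called in none (grey) are the largest segment of the large subunit bar, 26 of 46.

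The study's contrast of knockout with wild-type was then applied to these genes, gene by gene and as shares. Ribosomal protein genes were called at 15.8% ± 6.05 in wild-type (SD, n = 3) and 17.6% ± 13.4 in knockout libraries (SD, n = 4), a difference of 1.83 percentage points, less than the SD of each genotype. Factor genes were called at 13.9% ± 3.67 (SD, n = 3) and 14.9% ± 13.8 (SD, n = 4), a difference of 1.04 points. All protein-coding genes stood at 8.39% ± 2.41 and 9.11% ± 6.30. Without knockout library 4 the differences turned to −4.76 and −5.56 points, and without wild-type library 3 that of the ribosomal protein genes was −1.65. All protein-coding genes stood at 8.76%, 6.12% and 3.55% in knockout libraries 1 to 3, so their knockout mean without library 4 also falls below wild-type. With each list cut to its 3366 peaks of highest −log10 q, the difference was 0.366 for the ribosomal protein genes and −2.43 for the factor genes. All genes then stood at 3.63% to 3.89% in wild-type and 2.98% to 4.95% in knockout libraries. The number of peaks in a list moved with these shares, and its part in them was not tested beyond these alternatives.

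By gene, 39 of the 75 called genes (52.0%) had the higher share of knockout libraries and 33 (44.0%) the higher share of wild-type libraries, where 52.6% and 42.6% of all called genes did. Complete separation, with calls in all libraries of 1 genotype and 0 of the other, was seen at 0 of the 75, against 0.193% of all called genes. In Fisher's exact test of each gene (two-sided, 3 against 4 libraries), adjusted over 5169 called genes by the Benjamini-Hochberg method, 0 genes passed (0% of those tested), and 10 genes, none of them described here, had an unadjusted p under 0.05. For a single gene the smallest p this exact test can give is 0.0286. Adjusted over 5169 genes, such a p could fall under 0.05 only if most of those genes were completely separated. The number of libraries thus all but fixed the 0, and no conclusion about the genotypes is drawn from it. A difference of at least 50 percentage points toward knockout was found for 6 of the 75 (8%, against 6.33% of all called genes), among them Rps21, Rps23, Rpl27a, Rpl41 and Eef2. Toward wild-type it was found for 2 (2.67%, against 4.04%), Eif4e and Rps12. Of the genes named toward knockout, all but Rps21 had 2 calls, with knockout library 4, the longest list, among them. Without knockout library 4 the difference was 33.3 points at Rpl27a and Eef2 and 66.7 at Rps21.

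The smallest p among these genes was 0.143 (exact, adjusted p = 1), shared by Eif4e, Rps21 and Rps12. The Eif4e peaks merged at chr3:138526966-138527296, over the second of 2 annotated starts (138527268) and downstream of the first (138526191). They lay more than 500 bp from the end of the gene span, so that a window of that size gave no call. With lists of equal length Eif4e had a peak in 1 of 3 wild-type libraries and in 0 of 4 knockout libraries and Rps21 in 0 of 3 and 1 of 4. The stretch at the second Eif4e start, chr3:138527138-138527287 on the plus strand of GRCm38.p6, is shown because it carries the largest difference between the genotypes. It covers the same 130 bases before and 20 from the start, with capitals for an E-box, an NRF1 match and a CCAAT box.
Eif4e: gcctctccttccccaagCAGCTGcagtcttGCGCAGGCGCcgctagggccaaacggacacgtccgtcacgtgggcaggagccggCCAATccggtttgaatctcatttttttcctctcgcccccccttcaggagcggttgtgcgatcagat

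Where a gene was called repeatedly, the calls fell in one place. Of the 40 genes called in 2 or more libraries, all 40 had their calls from different libraries in 1 merged region, and 39 had no other. Rpl41 had a second region, in knockout library 4. Positions were counted over pairs of a gene with an annotated start and a peak. A gene enters once for each of its peaks in each library, so the pairs are not separate genes. Of 142 such pairs, 75 peaks (52.8%) overlapped the start and 120 (84.5%) came within 300 bp of it. The peak centre lay upstream in 130 (91.5%), at a median of −92 bp. Among 11201 such pairs at other protein-coding genes, 42.0% overlapped the start, 80.04% came within 300 bp and 78.8% were upstream, at a median of −77.5 bp, and 9.43% lay over 1000 bp from it, against 2.11% here. Their median width was 122 to 169 bp per library, against 125 to 167 bp at other genes, and was larger in 1 of 7 libraries. Their median percentile of −log10 q was 44.2 to 70.1, against 51.0 to 57.6, and higher in 4 of 7. A peak was shared with an end of another gene at 20 of the 75 called genes, and such a call cannot be told apart from a call of the neighbour. Rpl41 is the exception among the 20, since its region at the annotated start was not shared and by itself gave both of its calls.

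**Figure D4:**
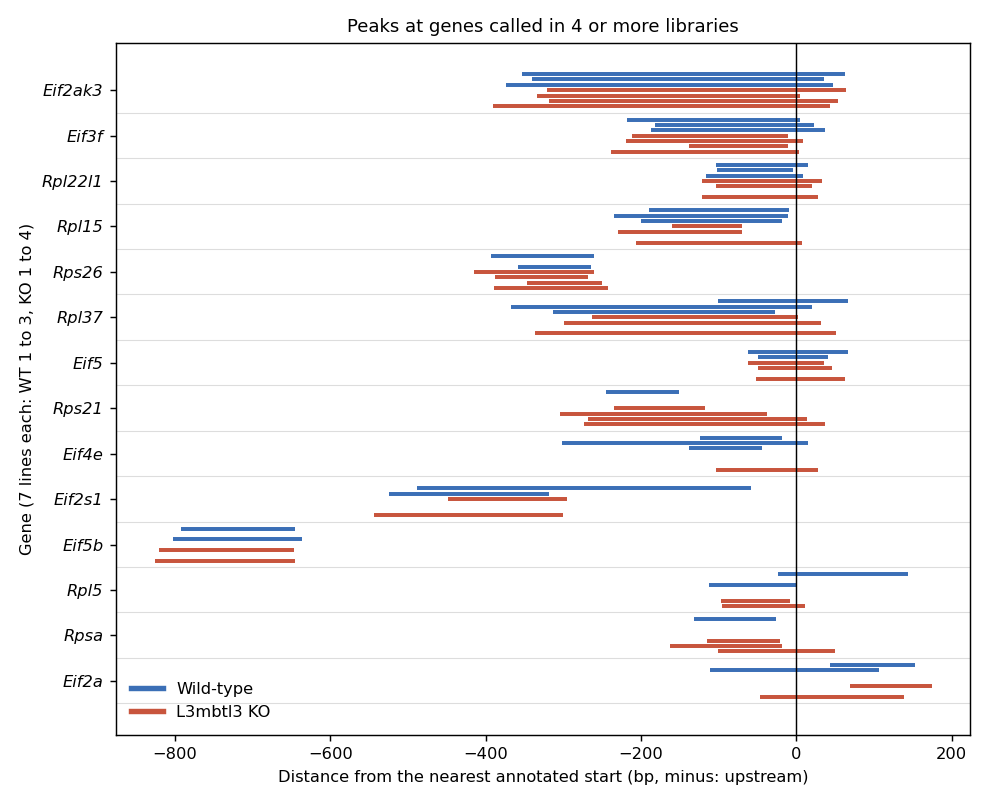
Horizontal lines are the peaks of the genes called in 4 or more libraries that have an annotated start, 1 line per library in the order given on the vertical axis (blue wild-type, red knockout), by distance in bp from the nearest annotated start, with minus upstream. Peaks of Eif2ak3 and Eif5 cover the start, those of Rps26 end 242 to 268 bp before it, and those of Eif5b lie farthest upstream.

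The starts of these genes held ETS and YY1 motifs more often than those of all genes, among called and uncalled genes alike. RefSeq promoter windows, 250 bases before to 50 from the annotated start, were found for 126 of the 163 genes and for 17492 genes in all. The ETS motif stood in 31.7% of the 126 windows and 11.9% of all, and the YY1 motif in 19.0% and 6.67%. A pyrimidine run at the start was found in 12.7% and 2.16%, in 14 of 70 ribosomal protein genes (20%) and 2 of 56 factor genes (3.57%). The ratio of observed to expected CpG had a median of 0.843, against 0.575 for all genes. GC boxes stood in 64.3% against 46.3%, the CCAAT box in 31.7% against 39.1%, the TATA box in 11.1% against 13.3%, the NRF1 motif in 8.73% against 6.597% and the proneural E-box in 7.94% against 15.1%. A match is a stretch of letters, not a bound site.

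Called and uncalled genes of the set were alike in some of these features and apart in others. The ETS motif stood in 32.2% of the 59 called and 31.3% of the 67 uncalled windows. The CCAAT box stood in 26 of the 59 (44.1%) and 14 of the 67 (20.9%), and the GC box in 72.9% and 56.7%. The GC box difference was that of the ribosomal protein genes, at 74.2% called and 43.6% uncalled, while factor genes stood at 71.4% and 75%. The median CpG ratio also ran opposite ways, 0.925 called and 0.769 uncalled in ribosomal protein genes and 0.799 and 0.893 in factor genes. Among all genes the called windows also held more CCAAT boxes (50.9% against 35.3%) and GC boxes (64.6% against 40.4%), and besides more ETS motifs (19.8% against 9.32%) and a higher CpG ratio (0.774 against 0.426). The CCAAT box stood in 48.4% of called and 17.9% of uncalled windows in ribosomal protein genes and in 39.3% and 25% in factor genes. These shares are descriptions with no test.

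**Figure D5:**
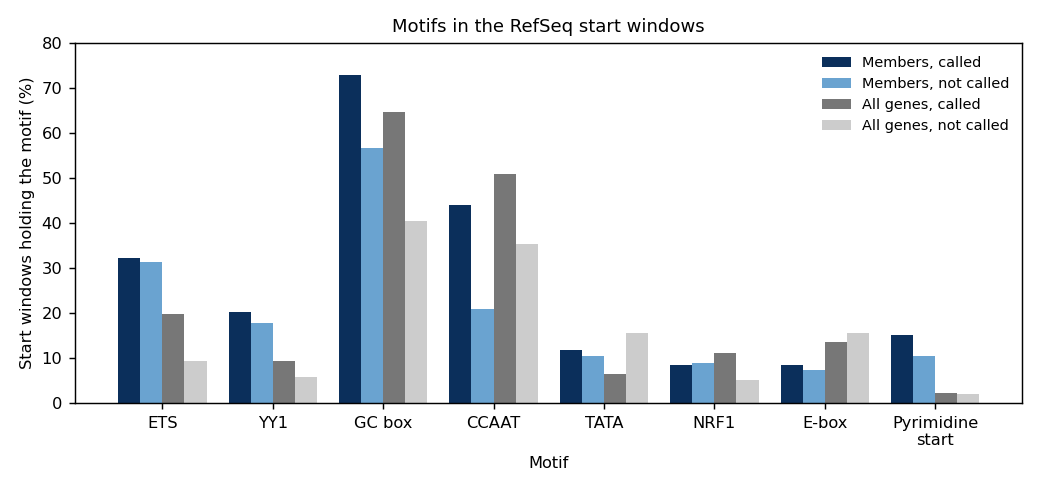
Bars give the percent of RefSeq start windows that hold each motif, for the ribosomal protein and factor genes (blue, labelled members) and all protein-coding genes (grey), dark where the gene was called in at least 1 library and light where it was called in none. ETS bars are level between called and uncalled members (32.2% and 31.3%), and CCAAT bars are not (44.1% and 20.9%).

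Starts rich in motif matches occur without any call. The 3 uncalled genes with the most matches were Eif5a2, a paralog of Eif5a (chr3:28781147-28781296, plus strand), Eif1b (chr9:120492476-120492625, plus strand) and Eef1e1, a scaffold of the aminoacyl-tRNA synthetase complex (chr13:38659009-38659158, minus strand). They are printed as the counterpart of the called starts above, over the same 130 bases before and 20 from the start in GRCm38.p6, with GC boxes, CCAAT boxes, an ETS match and an NRF1 match in capitals.
Eif5a2: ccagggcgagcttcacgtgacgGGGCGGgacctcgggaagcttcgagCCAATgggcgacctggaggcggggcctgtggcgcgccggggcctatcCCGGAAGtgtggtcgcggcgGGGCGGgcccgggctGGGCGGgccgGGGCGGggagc
Eif1b: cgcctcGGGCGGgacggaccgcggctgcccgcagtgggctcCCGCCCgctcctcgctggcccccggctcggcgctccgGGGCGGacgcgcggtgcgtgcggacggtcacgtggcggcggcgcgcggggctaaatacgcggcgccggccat
Eef1e1: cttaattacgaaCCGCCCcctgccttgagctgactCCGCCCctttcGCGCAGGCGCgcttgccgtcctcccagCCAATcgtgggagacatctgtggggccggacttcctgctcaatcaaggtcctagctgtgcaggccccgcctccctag

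Genes for small nucleolar RNAs, which guide the modification of ribosomal RNA, often lie in introns of these families. By symbols in the gene table, 39 of the 163 genes hold a small nucleolar RNA gene within their span and 21 of them (53.8%) were called, against 54 of 124 others (43.5%). Ribosomal protein genes were short, with a median span of 3.18 kb against 16.4 kb for the factor genes and 17.2 kb for all genes. Of 331 pseudogenes named after these families, 1 (Rpl31-ps25, in 1 library) was touched by a peak anywhere in its span, or 0.302%, against 1.199% of all 10429 pseudogenes and 61 of the 163 gene spans. How reads that map to several places were treated is not given in the sources used here.

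Of 71 other genes of ribosome production and translation control, 31 (43.7%) were called at least once, 7 (9.86%) in 4 or more libraries and 0 in all 7, against 23.6%, 6.52% and 1.13% of all genes. Of the 31, 19 had the higher share of knockout and 12 of wild-type libraries, where 52.6% and 42.6% of all called genes did. None passed the test, which with this number of libraries could hardly pass any gene. Among 30 ribosome biogenesis genes 15 were called, 11 with the higher share of knockout and 4 of wild-type libraries, with Rrp9, of the pre-ribosomal U3 particle, in 2 of 3 wild-type libraries and 4 of 4 knockout libraries, Brix1 in 3 of 3 and 2 of 4, and Ltv1, which assembles the small subunit, in 3 of 3 and 1 of 4. Of 9 RNA polymerase I genes 2 were called, Polr1d in 3 of 3 and 2 of 4 libraries and Taf1a in 2 libraries of each genotype. Termination and recycling genes were called in 6 of 9 cases, none in more than 3 libraries, with the release factor gene Etf1 in 1 of 3 and 2 of 4. Of 18 genes of mTOR signalling and pyrimidine-start mRNAs 6 were called, 3 with the higher share of knockout and 3 of wild-type libraries. Mtor had a peak in 0 of 3 wild-type libraries and 2 of 4 knockout libraries, and the S6 kinase gene Rps6kb1 in 0 of 3 and 3 of 4. Rheb, the activator of mTOR, and Pik3ca had 1 call in each genotype. Rptor was called in 1 knockout library only and Myc in 1 wild-type library only. Of the 2 enzymes that hypusinate Eif5a, Dohh had a peak in 1 library of each genotype. Of the ribosomal proteins that the symbol rule misses, the ribosome-bound scaffold gene Rack1 was called in 1 knockout library and Fau in none.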

How the data were processed

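Peak lists of 7 ATAC-seq libraries were used as deposited, 1 list of broad peaks per library. Per the submitters' processing notes, the tools were Bowtie2 2.3.5.1, MACS2, SAMtools 1.9, deepTools 3.3.0, FastQC 0.11.8 and CASAVA 1.9, on build GRCm38. Not given in the sources used here are their settings, the version of MACS2, any read shift for the transposase and the handling of multiply mapped reads. Each peak carries a fold enrichment (a ratio), a −log10 p and a −log10 q deposited by the authors. The score the authors deposited was not used. The smallest −log10 q was 1.30 to 1.32 in the lists. Read depth is unknown, so no counting intervals could be set.

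From these, a gene counted as called with a peak at most 1 kb from either end of its RefSeq span (GRCm38.p6; coordinates count from 1). RefSeq promoter windows gave strand and starts. Fisher's exact test per gene was adjusted over all called genes by the Benjamini-Hochberg method (Python 3.11.15, scipy 1.17.1, pandas 2.3.3). Scripts were tested on simulated data. Alternatives were windows of 500 and 2500 bp, −log10 q of at least 5, lists cut to 3366 peaks, the nearest gene end only, annotated starts only, autosomes only, and leaving out each library. Another leaves out both the longest and the shortest list and was chosen after seeing the data. The genes, gene lists and motifs were chosen with earlier results of these data known. The genes named are those called in every library, up to 3 further per functional group by number of libraries, up to 2 per group with a difference of at least 50 points, and L3mbtl3. Other genes named (such as Rpsa, Rps29, Rps23, Rpl41, the paralogs and genes called in none) were chosen after their values were seen. Some genes are counted in the totals but not reported here by name. Same-numbered wild-type and knockout libraries correlated at −0.00496, 0.0723 and 0.0694 over genes, and differently numbered ones at −0.106 to 0.0838. These values neither show nor exclude that the numbers pair the libraries.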

Additional observations from a re-analysis of the deposited data

How the results depend on the processing

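The 163 genes were called in a larger share than all genes under every alternative, and the ratio of 1.75 stayed between 1.69 and 1.82 without each library. The genotype differences had no stable direction. Without single libraries that of the ribosomal protein genes ran from −4.76 to 5.13 points and that of the factor genes from −5.56 to 5.09, and the ribosomal protein share minus the factor share from 1.25 to 3.32. Factor genes differed by −2.43 with equal lists and −1.04 with annotated starts only, and ribosomal protein genes by 0.366 and 3.21. With annotated starts only the ribosomal protein share minus the factor share was 0.051 points. A replicate block on the 3 shared numbers leaves out knockout library 4 and gave −4.76 and −5.56. Without both the longest and the shortest list, chosen after seeing the data, the differences were −3.11 and −2.78 points, 9 genes were called in at least 4 of the remaining 5 libraries, and 85 of all genes were separated by genotype, against 10. Genes called in at least 4 libraries, 18 in all, numbered 10 to 16 without each library (10 without knockout library 4). They numbered 9 with lists of equal length, 2 among peaks whose −log10 q was 5 or more and 13 by the nearest gene end. The matching counts over all genes are not given here. All genes separated by genotype numbered 22 to 46 without each library, where fewer libraries must agree, and 1 among peaks of −log10 q 5 or more. Unknown depth limits every absence of a call.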
